A study of Rattus norvegicus with 8 samples.

Results

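The microRNAs (miRNAs) of the deafferented medial vestibular nucleus (MVN) were compared between 4 d and 4 h after unilateral vestibular deafferentation (UVD), on 4 of the 8 arrays of the series: 2 UVD arrays from 4 h after surgery and 2 from 4 d. Arrays were taken by operation and timepoint, as their titles give them, and not by any measured value. The animals were male Sprague–Dawley rats 7 weeks old. In the UVD group the left labyrinth was opened and destroyed with ethanol, after the eardrum and the ossicles other than the stapes had been removed. In the sham operation (SO) group, which had 2 arrays at each timepoint as well, the same parts of the middle ear were removed while the vestibule stayed closed. The left MVN was dissected by hand, and RNA of 3 animals was pooled for each array, so the replicates are pools of different animals. No unoperated animals were among the 4 groups. Each array read 758 rat miRNAs with a single dye. Values are total gene signals, quantile normalized over the 8 arrays here and called normalized intensity below. Of the 758 miRNAs, 419 were detected on both arrays of at least 1 UVD timepoint and were tested, and the other 339 were not.

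The MVN is a brainstem nucleus that receives afferent signals from the vestibular nerve, and its neurons on the operated side lose that input at once when the labyrinth is destroyed. Over the following days the resting activity of the nuclei of both sides is rebalanced, which is called vestibular compensation. A miRNA binds mRNAs mainly through its seed, bases 2 to 8 from its 5′ end, and represses their translation or shortens their life. miRNAs that share a seed can act on the same mRNAs, and both strands (arms) of a hairpin precursor can give a mature miRNA. In RNA of a whole nucleus, fewer cells of a type and less RNA per cell cannot be told apart.

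Mature sequences came from RefSeq (GRCr8), which matched 685 of the 758 miRNAs on the array and 383 of the 419 tested. All are printed 5′ to 3′ with the seed in capitals. The first set shares the seed AGCAGCA and holds 2 of the 12 miRNAs with the largest higher means at 4 d, miR-195-5p and miR-497-5p.
miR-195-5p: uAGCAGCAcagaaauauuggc
miR-497-5p: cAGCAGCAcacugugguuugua
miR-16-5p: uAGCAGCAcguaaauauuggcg
miR-15b-5p: uAGCAGCAcaucaugguuuaca
miR-322-5p: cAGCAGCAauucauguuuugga
The second set shares the seed AAAGUGC of the miR-17 family, all 5 members of which had higher means at 4 d. The sequence of miR-18a-5p, a neighbor of miR-17 with another seed, stands last.
miR-17-5p: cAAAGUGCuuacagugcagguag
miR-20a-5p: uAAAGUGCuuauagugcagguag
miR-20b-5p: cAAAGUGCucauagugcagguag
miR-93-5p: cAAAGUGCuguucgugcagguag
miR-106b-5p: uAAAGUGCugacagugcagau
miR-18a-5p: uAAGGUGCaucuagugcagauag
The third set gives pairs of equal seed, shown because the members are compared below. Their differences between the timepoints were unequal for all of these pairs but miR-204-5p and miR-211-5p.
miR-206-3p: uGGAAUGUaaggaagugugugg
miR-1b: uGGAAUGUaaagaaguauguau
miR-221-3p: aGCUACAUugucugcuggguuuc
miR-222-3p: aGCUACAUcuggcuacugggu
miR-204-5p: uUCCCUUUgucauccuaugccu
miR-211-5p: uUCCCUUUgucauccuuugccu
miR-132-3p: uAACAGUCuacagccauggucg
miR-212-3p: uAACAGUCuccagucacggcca
The last set gives other miRNAs with large differences, namely miR-1298 and both arms of miR-142, which were higher at 4 d, and 5 miRNAs that were lower.
miR-1298: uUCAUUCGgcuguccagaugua
miR-142-3p: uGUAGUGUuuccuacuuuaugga
miR-142-5p: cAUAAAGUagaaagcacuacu
miR-218a-5p: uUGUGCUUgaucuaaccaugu
miR-137-3p: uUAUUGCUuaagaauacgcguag
miR-127-3p: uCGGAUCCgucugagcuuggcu
miR-490-3p: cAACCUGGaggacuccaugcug
miR-483-3p: cACUCCUCcccucccgucuugu

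In GRCr8, miR-195-5p lies at chr10:55450509-55450529 (+ strand) beside miR-497-5p at chr10:55450172-55450193 (+ strand). miR-221-3p lies at chrX:6023246-6023268 (+ strand) beside miR-222-3p at chrX:6022682-6022702 (+ strand). Several of these miRNAs lie within the span of a protein-coding gene, although exon and intron were not resolved here. miR-1298 at chrX:115556987-115557008 (+ strand) lies within Htr2c, which codes for a serotonin receptor that is abundant in choroid plexus. miR-204-5p at chr1:229743493-229743514 (+ strand) lies within Trpm3, which codes for a cation channel. miR-511-3p at chr17:82188001-82188021 (+ strand) lies within Mrc1, which codes for the macrophage mannose receptor. miR-490-5p and miR-490-3p, at chr4:66014607-66014626 (+ strand) and chr4:66014644-66014665 (+ strand), lie within Chrm2, which codes for a muscarinic acetylcholine receptor. miR-218a-5p is made from 2 genes, one within Slit3 and the other within Slit2, and miR-483-3p at chr1:207247865-207247886 (- strand) lies within Igf2.

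Between 378 and 430 miRNAs were detected per array. Replicate 2 of the UVD group at 4 h had the 378 and stood apart, with the lowest correlations with other arrays (0.971 at the lowest). Of the 419 tested miRNAs, all were detected on both 4 d arrays and 378 on all 4 UVD arrays. A further 40 were missed only on UVD 4 h replicate 2, and miR-128-2-5p was missed on both 4 h arrays. These 41 passed the filter through 4 d alone. They are kept in the test and in the counts over all 419, but left out of the counts over the 378 and of the lists below. Of the 41, 39 had a higher mean at 4 d, at means of at most 20.6. On the slide, all UVD arrays were in row 2, those of 4 d in columns 1 and 2 and those of 4 h in columns 3 and 4, so slide position and timepoint cannot be told apart. Neuronal, oligodendrocyte and hindbrain miRNAs that fit the labeled tissue, miR-124-3p, miR-219a-5p and miR-10a-5p, were detected on all 4 UVD arrays. Detection alone does not single out this tissue. All 6 listed muscle miRNAs and 9 of 11 listed for choroid plexus and ciliated ependyma were detected on all 4 as well.

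No miRNA passed limma between the UVD timepoints. Among miRNAs detected on all 4 UVD arrays, without overlap and with an unadjusted p under 0.05, the largest differences were higher means of miR-1298, miR-206-3p and miR-18a-5p and lower means of miR-483-3p, miR-298-5p and miR-490-5p at 4 d. At an adjusted p under 0.05, limma called 0 of 419 miRNAs (0.0%), with a smallest adjusted p of 0.191. Over these 419 the arrays of the timepoints did not overlap for 187 (44.6%), of which 80 were higher at 4 d (19.1%) and 107 lower (25.5%), and means were higher for 195 (46.5%) and lower for 216 (51.6%). At an unadjusted p under 0.05 limma gave 65 (15.5%), of which 38 had a higher mean at 4 d (9.07%) and 27 a lower one (6.44%). These counts include the 41 that passed the filter through 4 d alone, which raised the higher counts. Over the 378 without them, means were higher for 156 and lower for 214, and 68 were higher without overlap. An unadjusted p under 0.05 with a higher mean was then reached by 33. The lower counts without overlap (107) and at this limit (27) did not change. The methods' t-test gave 46 at the same limit and 0 after Benjamini-Hochberg adjustment, and was undefined for 12 miRNAs with no spread in either group. Without UVD 4 h replicate 1, limma called 13 miRNAs, of which 11 were not detected on the remaining 4 h array. miR-547-3p, which passed the filter through 4 d alone, had 2.1 on UVD 4 h replicate 1 and was not detected on UVD 4 h replicate 2. It had 9.11 and 7.81 on the 4 d arrays. Without UVD 4 d replicate 1 the log2 fold change of miR-18a-5p was 1.31.

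Among the 378 miRNAs detected on all 4 UVD arrays, differences were small. The median log2 fold change (4 d over 4 h) was -0.04, and 334 lay within 1.3-fold. Both 4 d arrays lay above both 4 h arrays for 68 miRNAs (18.0%) and below them for 107 (28.3%). Means were higher at 4 d for 156 (41.3%) and lower for 214 (56.6%). This split depends on the scaling. With scaling to the 75th percentile of the miRNAs detected on all arrays 111 of the 378 had a higher mean (29.4%), and without scaling 343 had (90.7%). The median of all 419 was then 0.26, so each direction below is relative to the other miRNAs of an array. More than 2-fold differences were seen for 5 of the 378, with 2 higher (miR-1298 and miR-206-3p) and 3 lower at 4 d. Of those 3, miR-483-3p had an unadjusted p under 0.05, while miR-183-3p (-1.45) and miR-216b-5p (-1.23) did not. In 3 classes of equal size by intensity, an unadjusted p under 0.05 was reached by 7 of 126 miRNAs in the lowest, 28 of 126 in the middle and 25 of 126 in the highest class. The arrays of a timepoint differed by a median of 0.10 at 4 h and 0.13 at 4 d on the log2 scale, beside a median absolute log2 fold change of 0.15 over the 419.

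**Figure D1:**
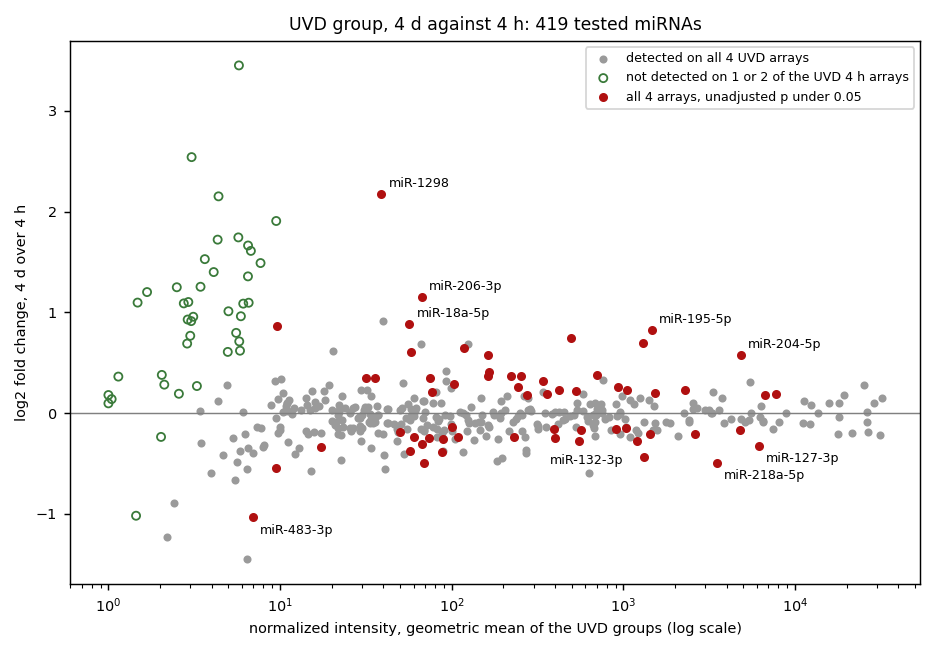
Log2 fold change (4 d over 4 h) of the 419 tested miRNAs in the UVD group against the geometric mean of the UVD groups' normalized intensities on a log axis; red points reached an unadjusted p under 0.05 among the 378 detected on all 4 UVD arrays, grey points are the rest of these, and open green circles are the 41 missed on 1 or both 4 h arrays. miR-1298 stands highest among the filled points at 2.17, and most open circles lie above 0 at the left edge.

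miR-1298, a miRNA of choroid plexus, had the largest log2 fold change above 0 among the 378. Its normalized intensities in the UVD group were 18.6 and 16.1 on the 4 h arrays and 125 and 48.9 on the 4 d arrays. Both 4 d arrays lay well above both 4 h arrays, and they differed from each other more than the 4 h arrays did. The log2 fold change was 2.17 (95% confidence interval 0.91 to 3.44, adjusted p = 0.215). On the SO arrays it had 25.3 and 22.7 at 4 h and 18.6 and 10.5 at 4 d, with the lower values at 4 d, and the difference between the time changes was 2.94 (95% confidence interval 1.16 to 4.73, adjusted p = 0.44).
miR-204-5p, abundant in choroid plexus and retinal pigment epithelium, had 3957 and 3957 on the 4 h arrays and 6745 and 5151 on the 4 d arrays, and the timepoints did not overlap. Its log2 fold change was 0.57 (95% confidence interval 0.24 to 0.91), and the SO arrays had 3820.1 and 3820.1 at 4 h and 3957 and 4179.5 at 4 d. The other arm, miR-204-3p, had 30.5 and 32.5 on the 4 h arrays and 44.1 and 36.5 on the 4 d arrays, again without overlap (log2 fold change 0.35). miR-211-5p, which shares the seed of miR-204-5p and is best known in pigment cells, had 15.0 and 17.7 on the 4 h arrays and 30.5 and 20.4 on the 4 d arrays (log2 fold change 0.61). For all 4 of these miRNAs UVD 4 d replicate 1 was the highest UVD array.
Of 11 listed miRNAs of choroid plexus and ciliated ependyma, 9 were detected on all 4 UVD arrays, with 7 higher and 2 lower means at 4 d. The 2 lower were miR-211-3p, the other arm of miR-211 (-0.28, without overlap), and miR-34b-3p (-0.01). Of the 9, 3 had an unadjusted p under 0.05, all higher (8.73% over the 378). They were miR-1298 and both arms of miR-204, which come from a single precursor. Median log2 fold changes were 0.17 after UVD and 0.20 after SO. The ciliated-cell miRNAs had smaller differences, with log2 fold changes of 0.13 for miR-34b-5p and 0.17 for miR-34c-5p, both larger in the SO group (0.57 and 0.64). The summed intensity of the list was 6048 and 6173 on the UVD arrays at 4 h and 7506 and 9298 at 4 d, and 5305 and 5502 and then 6229 and 6560 in the SO group. How much choroid plexus each dissection held was not tested.

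miR-206-3p, a miRNA of skeletal muscle that is also abundant in cerebellum of rodents, had 39.9 and 49.8 on the 4 h arrays and 88.4 and 111 on the 4 d arrays, without overlap. Its log2 fold change was 1.15 (95% confidence interval 0.17 to 2.13, adjusted p = 0.277). The SO arrays had 25.8 and 35.6 at 4 h and 42.3 and 87.4 at 4 d, and the SO log2 fold change was 1.00. miR-1b, which has the same seed, had 1201 and 1161 on the 4 h arrays and 1161 and 868 on the 4 d arrays, with UVD 4 d replicate 2 the low array, and its log2 fold change was -0.23. miR-133b-3p, encoded beside miR-206, had 1921 and 1921 on the 4 h arrays and 2111 and 1528 on the 4 d arrays, with UVD 4 d replicate 2 the lowest and UVD 4 d replicate 1 the highest array. All 6 listed muscle miRNAs were detected on all 4 UVD arrays, and 2 had a higher and 4 a lower mean at 4 d (median log2 fold change -0.08). The sign of this median rested on 1 array, as it was 0.22 without UVD 4 d replicate 2, and it was -0.34 without UVD 4 d replicate 1, -0.15 without UVD 4 h replicate 2 and -0.01 without UVD 4 h replicate 1. In the SO group all 6 had a higher mean at 4 d (median 0.38). The summed intensity of the muscle list was 2206 and 2222 at 4 h and 1834 and 2458 at 4 d in the UVD group, and its part in the difference of miR-206-3p was not tested.

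miRNAs with the AGCAGCA seed, which act on cyclin and other cell cycle mRNAs, had higher means at 4 d in the UVD group. miR-195-5p had 1077 and 1115 on the 4 h arrays and 1709 and 2212 on the 4 d arrays, and its log2 fold change was 0.83 (95% confidence interval 0.31 to 1.34, adjusted p = 0.215). Its genomic neighbor miR-497-5p had 1014 and 1030.2 on the 4 h arrays and 1503 and 1834 on the 4 d arrays (log2 fold change 0.70, 95% confidence interval 0.32 to 1.08). The timepoints did not overlap for either, and UVD 4 d replicate 2 was the highest array for both. miR-16-5p, the most widely expressed member of the family, had 6228 and 6360.4 on the 4 h arrays and 7029 and 7267 on the 4 d arrays and a log2 fold change of 0.18. miR-15b-5p (0.15) and miR-322-5p (0.01) had smaller differences. Of the 5 members, 5 had a higher mean and 3 an unadjusted p under 0.05, beside 41.3% and 8.73% of the 378. In the SO group all 5 had a higher mean at 4 d as well (median 0.29, against 0.18 in the UVD group).
Clusters of the miR-17 family, a group with a known role in proliferation, had higher means as well. miR-18a-5p had 38.6 and 43.3 on the 4 h arrays and 56.0 and 101 on the 4 d arrays, and the higher 4 d value was that of replicate 2 (log2 fold change 0.88, 95% confidence interval 0.18 to 1.58). miR-19a-3p had 137 and 150.3 on the 4 h arrays and 177 and 205 on the 4 d arrays, and miR-20a-5p had 598 and 629 on the 4 h arrays and 721 and 879.8 on the 4 d arrays. For both, all 4 d values exceeded all 4 h values, with log2 fold changes of 0.41 and 0.38. The 5 miRNAs with the AAAGUGC seed had log2 fold changes between 0.22 (miR-93-5p) and 0.38 (miR-20a-5p), and each had an unadjusted p under 0.05 (8.73% over the 378). Of 13 cluster members detected on all 4 UVD arrays, 12 had a higher mean at 4 d, 10 without overlap (18.0% over the 378) and 9 with an unadjusted p under 0.05 (8.73%). The exception was miR-106b-3p (-0.20), at intensities under 10. Neighbors of a cluster come from 1 transcript and AAAGUGC miRNAs are close in sequence, so these members are not independent of each other. The SO group had a median of 0.21 for the list, beside 0.23 in the UVD group. Let-7, the family linked to differentiation, had 7 higher and 2 equal means among 9 members, with log2 fold changes up to 0.18 and none with an unadjusted p under 0.05.

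Both arms of miR-142, a miRNA of blood-derived cells including microglia, had higher means at 4 d. miR-142-3p had 366 and 402 on the 4 h arrays and 581 and 712 on the 4 d arrays, and miR-142-5p had 45.3 and 48.9 on the 4 h arrays and 67.3 and 76.5 on the 4 d arrays. Neither arm overlapped between the timepoints. The log2 fold changes were 0.75 (95% confidence interval 0.35 to 1.14, adjusted p = 0.215) and 0.61 (95% confidence interval 0.38 to 0.83, adjusted p = 0.191), the latter with the smallest adjusted p of any miRNA detected on all 4 UVD arrays. The SO arrays at 4 d lay above those at 4 h too, with 379.7 and 385 at 4 h and 491 and 629 at 4 d for miR-142-3p. miR-223-3p, a miRNA of neutrophils and other myeloid cells, behaved differently. It had 107 and 74.6 on the 4 h arrays and 77.5 and 267 on the 4 d arrays, so UVD 4 d replicate 2 was far above the other 3 arrays while replicate 1 lay within the 4 h values. The confidence interval of its log2 fold change was accordingly wide (0.69, 95% confidence interval -0.78 to 2.15). miR-511-3p, encoded in the macrophage gene Mrc1, had 5.47 and 8.87 on the 4 h arrays and 13.1 and 12.4 on the 4 d arrays, and all these intensities were low (log2 fold change 0.87, 95% confidence interval 0.22 to 1.52). The SO group showed little difference for it (0.08).
Of the 7 listed microglial and leukocyte miRNAs, 6 had a higher mean at 4 d (41.3% over the 378) and 2, the arms of the single precursor of miR-142, an unadjusted p under 0.05 (8.73%). The median log2 fold change was 0.30, against 0.17 in the SO group, and it was 0.58 without UVD 4 d replicate 1 and 0.07 without replicate 2. Lymphocyte-rich miR-150-5p (0.06) and miR-342-3p (-0.16) showed little difference. The summed intensity of the list was 4876 and 4898 at 4 h and 5060 and 5326 at 4 d. miRNAs of red blood cells also had higher means, with 85.3 and 69.5 on the 4 h arrays and 147 and 71.8 on the 4 d arrays for miR-144-3p and 768 and 590.0 on the 4 h arrays and 1030.2 and 689.6 on the 4 d arrays for miR-451-5p, where UVD 4 d replicate 1 was the high array and replicate 2 lay within the 4 h values. For miR-486 both 4 d arrays lay above both 4 h arrays, with log2 fold changes of 0.32 after UVD and 0.28 after SO. The 3 erythroid miRNAs detected on all 4 arrays had a median of 0.32, which was 0.03 without UVD 4 d replicate 1, 0.62 without replicate 2 and 0.53 without UVD 4 h replicate 1. Blood in the pools was not measured otherwise, and its part in the values of leukocyte miRNAs was not tested.

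miR-221-3p, linked to proliferation and to vessels and glia, had 87.4 and 101 on the 4 h arrays and 133 and 164 on the 4 d arrays. Both 4 d arrays lay above both 4 h arrays, and the log2 fold change was 0.65 (95% confidence interval 0.28 to 1.02, adjusted p = 0.215). The SO arrays had 107 and 115 at 4 h and 109 and 93.3 at 4 d, and the difference between the time changes was 0.79 (95% confidence interval 0.26 to 1.31, adjusted p = 0.485). Its neighbor and seed partner miR-222-3p had 69.5 and 75.8 on the 4 h arrays and 59.5 and 70.0 on the 4 d arrays, which overlapped, with a log2 fold change of -0.17. Of the glial miRNAs, miR-21-5p, which rises in many tissues after injury, had 4964 and 4773 on the 4 h arrays and 5151 and 7029 on the 4 d arrays, where replicate 2 at 4 d was the high array. miR-210-3p, a miRNA of the hypoxia response, had 133 and 152 on the 4 h arrays and 179.5 and 187 on the 4 d arrays without overlap (log2 fold change 0.37, 95% confidence interval 0.16 to 0.58, adjusted p = 0.215). miR-146a-5p (0.21), a target of inflammatory signaling, had overlapping arrays. Of the 6 miRNAs in the astrocyte and reactive glia list, 3 had higher and 3 lower means (median 0.10, which was 0.17 without UVD 4 d replicate 1 and 0.01 without replicate 2). Oligodendrocyte miRNAs overlapped between the timepoints in all 4 detected members, with log2 fold changes of -0.09 for miR-219a-5p and -0.19 for miR-338-3p, both of which were above 0 but below the median of all tested miRNAs (0.26) without scaling between arrays. Vessel miRNAs had a median of -0.10, and of -0.04 without UVD 4 d replicate 2. miR-1949, whose function is not established, completed the 12 with 131 and 131 on the 4 h arrays and 164 and 234 on the 4 d arrays (log2 fold change 0.58).

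**Figure D2:**
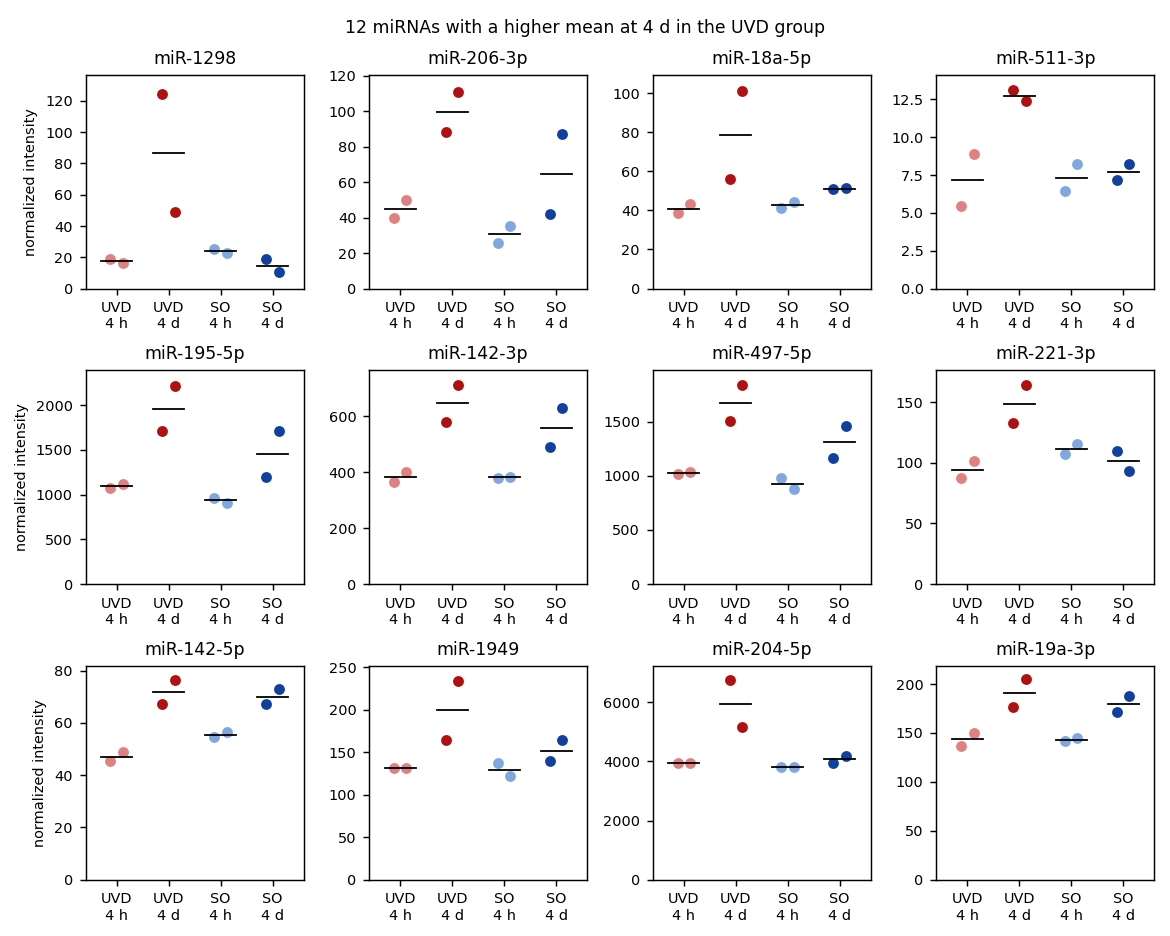
Normalized intensity (linear axis from 0) of the 12 miRNAs with the largest higher means at 4 d among those with an unadjusted p under 0.05; each point is 1 array of the UVD group (red) or the SO group (blue) with a black line at the group mean. In each panel both UVD arrays at 4 d lie above both at 4 h, UVD 4 d replicate 2 (right point) is the higher one in 9 of 12, and the SO mean is higher at 4 d in 10 of 12.

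Neuronal miRNAs had differences in both directions. miR-218a-5p, abundant in motor neurons and hindbrain, had 4505 and 3820.1 on the 4 h arrays and 2949 and 2949 on the 4 d arrays. The 4 d arrays were equal and lay below both 4 h arrays, with a log2 fold change of -0.49 (95% confidence interval -0.83 to -0.15, adjusted p = 0.234). The SO arrays had 3257 and 3957 at 4 h and 3329 and 2949 at 4 d and overlapped. miR-137-3p, which acts in synaptic and developmental regulation, had 604 and 614 on the 4 h arrays and 473 and 534 on the 4 d arrays (log2 fold change -0.28). In the SO group miR-137-3p had 1030.2 and 1046 at 4 h and 614 and 524 at 4 d, a larger difference, and the difference between the time changes was 0.60 (95% confidence interval 0.24 to 0.96, adjusted p = 0.44). miR-138-5p, linked to dendritic spine size, had a log2 fold change of -0.21, and its arrays did not overlap. In contrast, miR-124-3p, the most neuron-specific of the list, had 23574 and 21949 on the 4 h arrays and 26106 and 29054 on the 4 d arrays (0.28, 95% confidence interval -0.03 to 0.58), and miR-128-3p had 7267 and 7267 on the 4 h arrays and 8310.5 and 8310.5 on the 4 d arrays (0.19). miR-9a-5p was equal on all 4 UVD arrays after normalization. Of 17 neuron-enriched miRNAs, 5 had a higher mean, 11 a lower mean and 1 equal means at 4 d, and 4 had an unadjusted p under 0.05 (1 higher, 3 lower, beside 8.73% and 7.14% of the 378). The median was -0.04, close to the -0.04 of the 378, and -0.18 in the SO group.
All 6 tested miRNAs of the neuronal activity list had lower means at 4 d, 5 without overlap (28.3% over the 378). miR-132-3p, which is induced by CREB in active neurons, had 1571 and 1503 on the 4 h arrays and 1115 and 1161 on the 4 d arrays, and its log2 fold change was -0.43 (95% confidence interval -0.79 to -0.07, adjusted p = 0.277). miR-212-3p, from the same transcript and with the same seed, had 1161 and 1000.3 on the 4 h arrays and 949 and 1014 on the 4 d arrays and overlapped (-0.14). Its other arm miR-212-5p had -0.55, at intensities under 10. miR-134-5p, which acts in dendrites, had 111 and 91.6 on the 4 h arrays and 71.8 and 83.6 on the 4 d arrays (-0.38), and miR-485-5p had -0.25. SO log2 fold changes were -0.50 for miR-132-3p, -0.10 for miR-212-3p, -0.53 for miR-212-5p, 0.10 for miR-134-5p and -0.18 for miR-485-5p. In the SO group 5 of the 6 had a lower mean at 4 d and 1 a higher one. The median of the list was -0.36 in the UVD group (0.02 without scaling between arrays, where that of all tested miRNAs was 0.26) and -0.14 in the SO group. The UVD median was -0.21 without UVD 4 h replicate 2, -0.18 with log2(value + 16), -0.14 with the authors' normalized values and -0.13 with normexp, a background correction, on the median spot signal. For 0 of 6 members did the difference between the time changes reach an unadjusted p under 0.05 in limma (8.59% over the 419), with 0 of 6 at the adjusted threshold.
miR-134 and miR-485 lie in the imprinted Dlk1-Dio3 region, a maternally expressed cluster with many neuronal miRNAs. Of its 51 members detected on all 4 UVD arrays, 44 had a lower mean at 4 d and 31 did so without overlap, beside 56.6% and 28.3% of the 378. The median was 0.13 without scaling between arrays, where that of all tested miRNAs was 0.26. An unadjusted p under 0.05 was reached by 9, all lower (7.14% over the 378). miR-127-3p, antisense to Rtl1, had 7029 and 6745 on the 4 h arrays and 5418 and 5604 on the 4 d arrays, and miR-382-5p had 1314 and 1314 on the 4 h arrays and 1099 and 1077 on the 4 d arrays. The 4 h arrays lay above the 4 d arrays for both, with log2 fold changes of -0.32 (95% confidence interval -0.61 to -0.03) and -0.27 (95% confidence interval -0.53 to -0.02). miR-667-3p of the same region, which the list did not hold, had 65.8 and 64.3 on the 4 h arrays and 49.8 and 50.7 on the 4 d arrays (-0.37). Members are processed from shared transcripts and are not independent of each other. The SO median was -0.21, beside -0.14 after UVD, and in the SO group 48 of the 51 were lower at 4 d.

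Both arms of miR-490, encoded in Chrm2, had lower means at 4 d. miR-490-5p had 83.6 and 80.5 on the 4 h arrays and 53.9 and 62.6 on the 4 d arrays, and miR-490-3p had 101 and 99.7 on the 4 h arrays and 81.0 and 72.9 on the 4 d arrays. No 4 d value reached a 4 h value, and the log2 fold changes were -0.50 (95% confidence interval -0.87 to -0.13) and -0.39 (95% confidence interval -0.61 to -0.16). In the SO group they were -0.47 and -0.34. miR-483-3p, encoded in Igf2 and linked to growth, had 10.8 and 9.11 on the 4 h arrays and 4.84 and 4.84 on the 4 d arrays. Its 4 d values were equal and all its intensities were low, and the log2 fold change was -1.03 (95% confidence interval -1.73 to -0.33, adjusted p = 0.233). The other arm, miR-483-5p, had 96.4 and 82.7 on the 4 h arrays and 70.7 and 81.0 on the 4 d arrays (-0.24). miR-298-5p, encoded near the imprinted Gnas locus, had 9.83 and 13.1 on the 4 h arrays and 7.45 and 8.15 on the 4 d arrays and 20.7 and 16.1 at 4 h and 10.2 and 9.11 at 4 d in the SO group. Its log2 fold changes were -0.54 after UVD and -0.92 after SO. miR-295-5p, from a cluster known for embryonic stem cells, had 20.9 and 18.3 on the 4 h arrays and 15.5 and 15.5 on the 4 d arrays, and miR-3593-3p had 74.9 and 74.9 on the 4 h arrays and 62.6 and 58.4 on the 4 d arrays. In these the SO group had differences of 0.08 and -0.01, beside -0.34 and -0.31 in the UVD group.

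**Figure D3:**
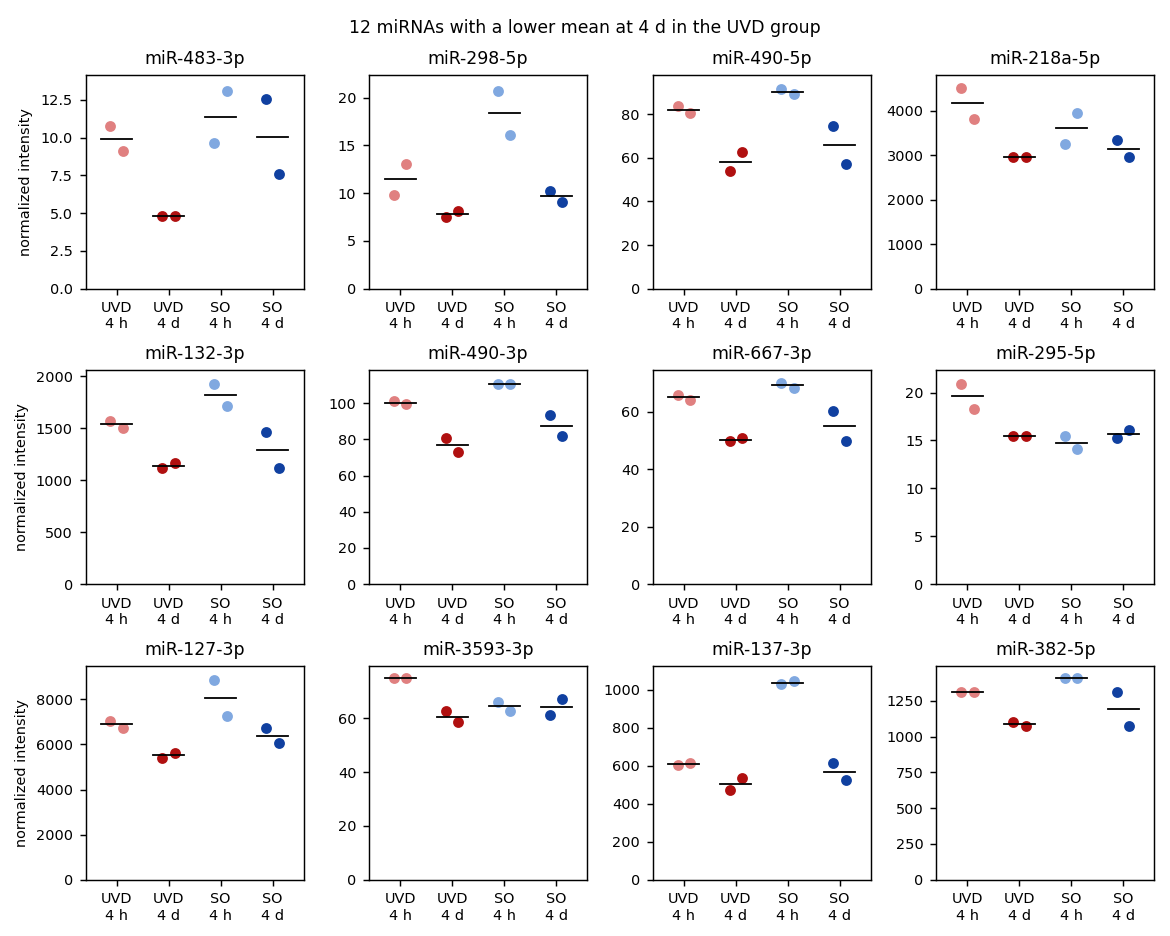
Normalized intensity (linear axis from 0) of the 12 miRNAs with the largest lower means at 4 d among those with an unadjusted p under 0.05; each point is 1 array of the UVD group (red) or the SO group (blue) with a black line at the group mean. In each panel both UVD arrays at 4 d lie below both at 4 h, and the SO mean is lower at 4 d in 11 of 12.

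miRNAs of sensory epithelia of ear and eye had lower means at 4 d in the UVD group and higher means in the SO group. miR-96-5p had 740.2 and 768 on the 4 h arrays and 681 and 366 on the 4 d arrays, and miR-183-5p, from the same transcript, had 209 and 219 on the 4 h arrays and 200.0 and 118 on the 4 d arrays. In both, UVD 4 d replicate 1 lay just below the 4 h arrays and replicate 2 far below. The SO arrays had 510.2 and 510.2 at 4 h and 728 and 912 at 4 d for miR-96-5p and 152 and 118 at 4 h and 205 and 226 at 4 d for miR-183-5p. The difference between the time changes was -1.27 (95% confidence interval -2.35 to -0.20, adjusted p = 0.494) for miR-96-5p and -1.16 (95% confidence interval -2.13 to -0.19, adjusted p = 0.494) for miR-183-5p. miR-182, the other member of the cluster, had log2 fold changes of -0.45 after UVD and 0.42 after SO. miR-141-3p, an epithelial miRNA of the miR-200 family, had 22.5 and 14.0 on the 4 h arrays and 16.4 and 8.66 on the 4 d arrays and 9.22 and 3.55 at 4 h and 20.9 and 28.2 at 4 d in the SO group. Of 8 listed miRNAs 4 were tested, and the members of the miR-183 cluster among them are not independent of each other. All 4 had lower means at 4 d in the UVD group (56.6% over the 378), and 0 of them had an unadjusted p under 0.05. Their median was -0.52, and it was -0.94 without UVD 4 d replicate 1 and -0.11 without replicate 2. In the SO group all 4 had higher means at 4 d (51.1% over the 378), with a median of 0.68. Whether sensory or other epithelium lay in the dissected tissue was not tested.
The Hox-cluster members miR-10b-5p and miR-10a-5p mark hindbrain and spinal cord. In the UVD group both had lower 4 d arrays without overlap (28.3% over the 378), and neither had an unadjusted p under 0.05. The log2 fold changes were -0.39 for miR-10b-5p (95% confidence interval -0.79 to 0.01, adjusted p = 0.312) and -0.25 for miR-10a-5p. miR-10a-5p had 200.0 and 205 on the 4 h arrays and 168 and 171 on the 4 d arrays there and 491 and 452 at 4 h and 226 and 159 at 4 d in the SO group, where the 4 h arrays were the high ones. The difference between the time changes was 1.06 (95% confidence interval 0.45 to 1.66, adjusted p = 0.44) for miR-10a-5p and 0.78 (95% confidence interval 0.21 to 1.35, adjusted p = 0.494) for miR-10b-5p. miR-196a-5p, miR-196b-5p and miR-196c-5p, which mark more caudal levels, were not among the tested miRNAs.

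**Figure D4:**
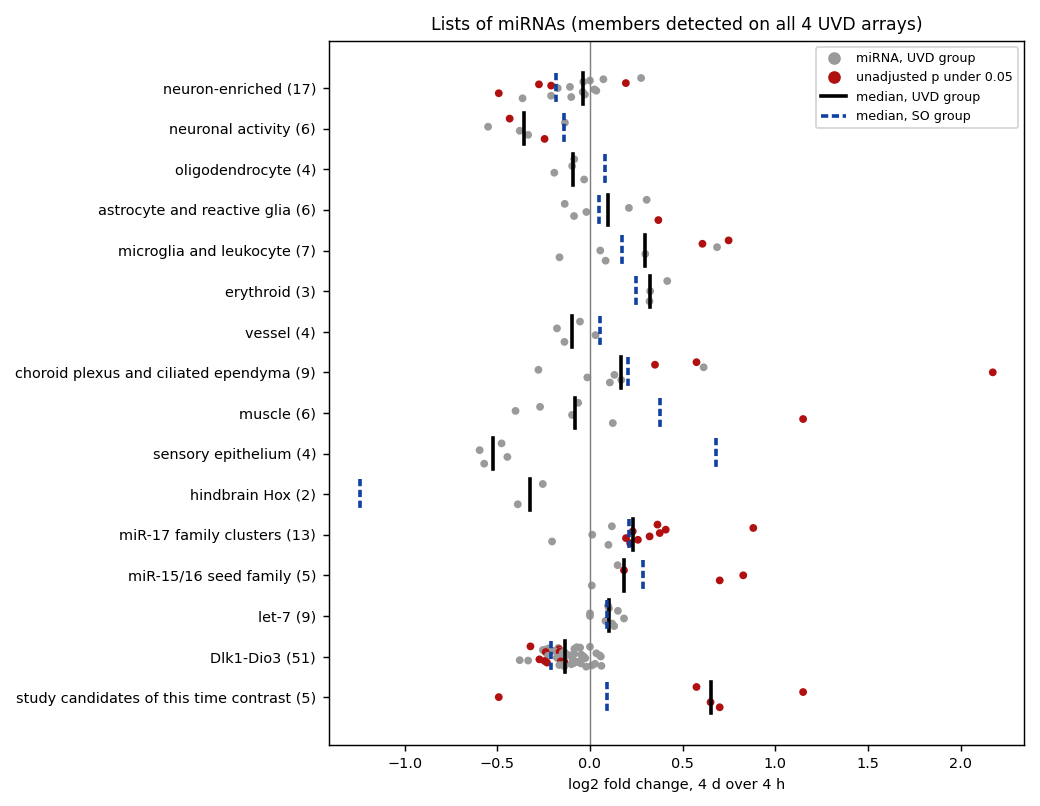
Log2 fold changes (4 d over 4 h) in the UVD group of the members of each list that were detected on all 4 UVD arrays, with their number in brackets; red points reached an unadjusted p under 0.05, black bars are the medians of the UVD group and dashed blue bars those of the same miRNAs in the SO group. The medians of the sensory epithelium list lie at -0.52 and 0.68, while those of the miR-17 family clusters nearly coincide at 0.23 and 0.21.

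The study took 5 candidates from this time contrast, 4 with a higher mean at 4 d (miR-497-5p, miR-221-3p, miR-206-3p and miR-204-5p) and 1 with a lower one (miR-218a-5p), all without overlap (46.3% over the 378). All 5 had an unadjusted p under 0.05 in limma (15.9% over the 378) and none passed after adjustment, with adjusted p between 0.215 and 0.277. As the study chose them by fold and p limits on these arrays, these counts are not independent evidence of their direction or difference. Their SO log2 fold changes were 1.00 for miR-206-3p, 0.49 for miR-497-5p, 0.09 for miR-204-5p, -0.14 for miR-221-3p and -0.20 for miR-218a-5p. At the p limit that the methods set, their t-test gave 114 of the tested miRNAs on the values used here, and 23 of these also passed the fold limits.

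The time change after UVD was set beside that after the sham operation, which shares the anesthesia, the opening of the ear and the recovery time. The SO group had its own arrays, so the log2 fold changes share no sample. The comparisons were normalized together, their timepoints lay in the same slide columns, and a single fit gave them a shared estimate of the spread. A small p after UVD therefore depended in part on the spread of the SO arrays. The SO shares of miRNAs chosen by that p are not independent of the choice. Of the 60 miRNAs with an unadjusted p under 0.05 among the 378 (15.9%), 54 had a mean difference of the same direction in the SO group (90%), beside 249 of all 378 (65.9%). Among the 12 highest, 10 had a higher mean at 4 d in the SO group (51.1% over the 378) and 9 did so without overlap (27.2%). Among the 12 lowest, 11 had a lower mean in the SO group (47.9% over the 378) and 8 did so without overlap (29.9%). Across the 378 miRNAs, UVD and SO log2 fold changes had a Pearson's r of 0.16 and a Spearman's rho of 0.37, given as a description because miRNAs are not independent replicates. Within the SO group limma called 4 of the 419 miRNAs (0.955%), with 99 at an unadjusted p under 0.05 (23.6%).
The difference between the time changes was called for 1 of 419 miRNAs (0.239%), miR-7a-2-3p, and 36 reached an unadjusted p under 0.05 (8.59%). miR-7a-2-3p had 9.0 and 9.52 on the 4 h arrays and 10.8 and 9.63 on the 4 d arrays in the UVD group and 19.1 and 17.7 at 4 h and 6.29 and 6.29 at 4 d in the SO group. The UVD arrays hardly differed (log2 fold change 0.14), while the SO arrays at 4 h were high and those at 4 d low (-1.55), and the difference was 1.68 (95% confidence interval 1.40 to 1.97, adjusted p = 0.00731). miR-7a-5p, the main product of the miR-7a genes and a miRNA of neurons and endocrine cells, had 414 and 452 on the 4 h arrays and 402 and 402 on the 4 d arrays and, in the SO group, 868 and 868 at 4 h and 452 and 318 at 4 d. For miR-7a-5p the difference between the time changes was 1.09 (95% confidence interval 0.48 to 1.69, adjusted p = 0.44), so it did not pass.

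**Figure D5:**
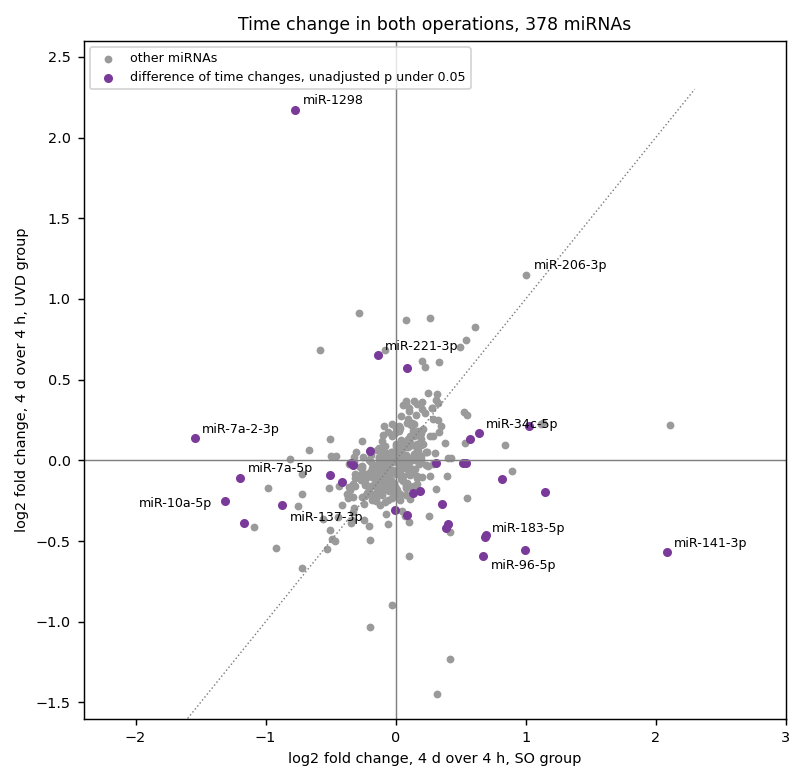
Log2 fold change (4 d over 4 h) in the UVD group (vertical axis) against that in the SO group (horizontal axis) for the 378 miRNAs detected on all 4 UVD arrays; purple points reached an unadjusted p under 0.05 for the difference between the time changes, and the dotted line marks equal changes. miR-206-3p lies near the dotted line (1.15 and 1.00), miR-1298 lies high on the left (2.17 and -0.77), and miR-96-5p, miR-183-5p and miR-141-3p lie at the lower right.

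Arms of 1 precursor and sequence composition were features that the choice of arrays did not use. Both arms were detected on all 4 UVD arrays for 94 precursors, and in 55 of them the arms had mean differences of the same direction (18 both higher at 4 d, 37 both lower), in 36 of opposite directions. A miRNA made from several precursors was counted with each, as the array cannot assign it. Among the precursors that follow, miR-138-5p counts for both miR-138-1 and miR-138-2. Of the 19 precursors with an arm at an unadjusted p under 0.05, the arms went the same way in 16. In 3 of these both arms had such a p, and they are the precursors of miR-142, miR-204 and miR-490 described above. Of 9 seeds with at least 3 members detected on all 4 UVD arrays, 2 had all means higher at 4 d (AAAGUGC and AGCAGCA) and none had all lower. Across the 344 of these miRNAs with a RefSeq sequence, GC content and log2 fold change had a Spearman's rho of -0.21, as a description across miRNAs. The median GC content was 43.2% for the 12 highest, 56.8% for the 12 lowest and 47.6% for the 344. Among the 12 lowest, GC content ran from 34.8% (miR-137-3p) to 65.2% (miR-298-5p).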

How the data were processed

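Total RNA of left MVNs (3 rats pooled per array, 2 arrays for each of 4 groups) was labeled with Cy3 and hybridized to 1 rat miRNA slide. Deposited were the intensity of every spot and, per miRNA, a total gene signal, which Agilent Feature Extraction 10.7.3.1 (per the file headers) background-subtracted and summed over 16 spots, and intensity values that the authors had quantile normalized. The detection flag of each miRNA (another deposited column) was used as given.

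Here, control spots were left out and quantile normalization (the study's method) was applied to the total gene signals of all 8 arrays. Normalized values under 1 were then set to 1 and log2 was taken of the result. limma 3.58.1 in R 4.3.3 (lmFit on 4 group means and eBayes) was fitted to every miRNA that both arrays of a UVD timepoint (4 h, 4 d or each) detected, with Benjamini-Hochberg adjustment over all 419. The model was tested on simulated data. With 2 arrays against 2, an exact permutation test can give no two-sided p under 0.333. The number of arrays limits the precision.

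The miRNAs and lists were chosen with earlier results of these data known. Named were, in each direction, the 12 with the largest log2 fold change among miRNAs detected on all 4 UVD arrays, without overlap and with an unadjusted p under 0.05; miRNAs past the threshold; the study's 5 candidates; those detected at 1 UVD timepoint alone; up to 4 members per list; and arms and seed partners. Other list members, miR-547-3p, miR-183-3p, miR-216b-5p and the miRNAs within Htr2c were named after their values were seen. Replicate numbers did not pair samples by the correlation of deviations from group means (-0.28 between the UVD groups).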

Additional observations from a re-analysis of the deposited data

Results flagged for a closer look

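miR-7a-2-3p was set aside because its time change differed between the operations in the test of that difference: the UVD minus SO time change was 1.68 on the log2 scale (adjusted p = 0.00731 by limma). All its normalized intensities were between 6.29 and 19.1, and the SO arrays at 4 h were the highest. The call was lost in other settings, which are given below, and its cause was not tested.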

How the results depend on the processing

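The limits are those of 2 arrays per timepoint and of weak signals: 41 of the 419 miRNAs were missed on a 4 h array, and values near the floor have no firm order. Of 1773 values of the 71 named miRNAs over 25 alternatives, 1736 kept their direction and their side of the threshold. Much of this was fixed in advance. Alternatives that changed only the filter on detection, the replicate block or the test left the log2 fold changes as they were. With 0 called between the UVD timepoints, a value could only gain a call there. The share kept is therefore no measure of how firm the values are. Of the 24 miRNAs with the largest differences, 3 changed direction, in the setting without scaling alone. The count of 0 called between the UVD timepoints became 1 with either 75th percentile scaling and without scaling (miR-128-2-5p in each), and 2 without a filter on detection. Leaving out 1 array gave 0 to 13. miRNAs whose UVD arrays did not overlap were 188 to 302 on leaving out 1 array, since a lone array overlaps less often. Arms of a precursor went the same way in 58.5%, in 54.3% to 68.1% on leaving out 1 array, and in 94.7% without scaling.

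Between the SO timepoints 4 calls became 0 with either 75th percentile scaling, without scaling and with the methods' t-test, 15 with normexp on the median spot signal, 19 with the authors' normalized values, 8 with a floor of 5, with detection on all 4 UVD arrays and with an intensity trend (robust or not), 7 with log2(value + 16) and with the 4-group filter, 2 without a filter and 1 to 5 on leaving out 1 array. For the difference between the time changes, 1 call became 0 with normexp, the authors' values and an intensity trend (robust or not), 2 with a floor of 5, 3 without a filter and 0 to 7 on leaving out 1 array. The value of miR-7a-2-3p no longer passed with the 75th percentile scalings (1.53 and 1.52), without scaling (1.96), with normexp (0.11), with the authors' values (0.17) and with a trend, robust or not (1.68). It was 0.68 with log2(value + 16), where it passed. On leaving out 1 array it was 1.61 to 1.78, and no longer passed without UVD 4 h replicate 2, SO 4 h replicate 1, SO 4 h replicate 2 or SO 4 d replicate 2. Its UVD time change was -0.023 with normexp and -0.017 with the authors' values. The causes were not tested.

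Without scaling between arrays, which moved the median of all miRNAs to 0.26, log2 fold changes turned above 0 for 17 named miRNAs, all staying below that median: 0.25 for miR-106b-3p, 0.0019 for miR-10a-5p, 0.083 for miR-127-3p, 0.063 for miR-133b-3p, 0.018 for miR-138-5p, 0.080 for miR-1b, 0.10 for miR-212-3p, 0.074 for miR-216b-5p, 0.22 for miR-219a-5p, 0.18 for miR-222-3p, 0.23 for miR-338-3p, 0.19 for miR-342-3p, 0.016 for miR-3593-3p, 0.062 for miR-382-5p, 0.083 for miR-483-5p, 0.091 for miR-485-5p and 0.17 for miR-7a-5p. With the 75th percentile of miRNAs detected on all arrays, miR-150-5p had -0.079 and miR-322-5p -0.040, and with the authors' values miR-338-3p had 0.046. On leaving out 1 array, log2 fold changes spanned 0 for miR-106b-3p (-0.64 to 0.16), miR-133b-3p (-0.33 to 0.15), miR-144-3p (-0.10 to 0.95), miR-219a-5p (-0.21 to 0.03), miR-223-3p (-0.21 to 1.58) and miR-322-5p (-0.012 to 0.033). Without scaling, list medians turned from below 0 to between 0 and 0.26 for the neuron-enriched (0.21), neuronal activity (0.02), oligodendrocyte (0.22), vessel (0.15), muscle (0.13) and Dlk1-Dio3 (0.13) lists.

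The replicate number as a block left the UVD count at 0 and the count between the time changes at 1, and moved the SO count from 4 to 1. The numbers are no pairing by the labels, and same-numbered UVD arrays deviated in opposite directions (correlation -0.28). The crossed pairing, added after the data were seen, gave 0 for UVD, 1 for SO and 1 for the difference.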

Other observations

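miR-1298 lies in the span of Htr2c, and the other miRNAs of that span were looked at after its values had been seen. RefSeq places 5 miRNA precursors there, and 8 miRNAs of the array come from them. Of the 8, 4 were tested, 3 were detected on no array and miR-1912-3p was detected on a single array, UVD 4 d replicate 1 (normalized intensity 8.39). miR-448-3p had 46.0 and 55.5 on the 4 h arrays and 115 and 57.2 on the 4 d arrays, with the highest value again on UVD 4 d replicate 1, and 67.3 and 70.0 at 4 h and 54.5 and 38.6 at 4 d in the SO group. Its log2 fold change was 0.68 (95% confidence interval -0.23 to 1.60, adjusted p = 0.395). The other arm did not follow it. miR-448-5p had 22.1 and 21.2 on the 4 h arrays and 26.8 and 17.7 on the 4 d arrays, which overlapped (log2 fold change 0.01). miR-764-3p had 20.7 and 22.9 on the 4 h arrays and 22.1 and 19.1 on the 4 d arrays (-0.09). In the SO group all 4 tested miRNAs of the span had lower means at 4 d, with log2 fold changes of -0.77, -0.58, -0.81 and -0.72 for miR-1298, miR-448-3p, miR-448-5p and miR-764-3p. The differences between the time changes were 1.26 (95% confidence interval -0.03 to 2.56, adjusted p = 0.494) for miR-448-3p, 0.82 (95% confidence interval -0.14 to 1.79, adjusted p = 0.494) for miR-448-5p and 0.63 (95% confidence interval -0.05 to 1.32, adjusted p = 0.494) for miR-764-3p, and none passed.

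No fold change is given for miRNAs that were missed on a 4 h array. miR-130b-3p, a member of a family linked to proliferation, was not detected on UVD 4 h replicate 2, had 3.12 on replicate 1 and 13.4 and 27.8 on the 4 d arrays. miR-449a-5p of ciliated cells was not detected on UVD 4 h replicate 2 either, and had 4.14 on replicate 1 and 9.22 and 8.87 on the 4 d arrays. miR-128-2-5p had 1.73 and 2.64 on the 4 d arrays and was not detected on the 4 h arrays. The lowest detected signals of the 4 h arrays had a geometric mean of 2.48, with those under the floor of 1 set to it. This lies above the 4 d geometric mean of miR-128-2-5p, 2.14.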
